A study of Homo sapiens with 6 samples.

Results

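COPI and COPII vesicles carry proteins between the endoplasmic reticulum and the Golgi apparatus, and the genes that build and guide them are described here in the lung carcinoma cell line A549, a long-established human line. The cells grew for 48 h either in 25 mM glucose or in glucose-free medium, and transcripts of 3 libraries from each condition were counted at their 3' ends. Neither group carries a labelled genetic change beyond those of the line itself. The members were the 50 genes of a fixed list of official symbols, chosen with earlier results of these data known. All 50 had a row among the 19240 genes of the deposited count table. They were read in 4 classes: 16 genes of the COPII coat and its assembly, 14 of the COPI coat and its GTPase cycle, 15 cargo receptors, and 5 tethers and fusion proteins. The series title names PCK2 and growth independent of glucose, and the comparison asks how the transcripts of this transport machinery differed between the groups.

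New secretory and membrane proteins leave the endoplasmic reticulum in COPII vesicles. The small GTPase SAR1, switched on by PREB, recruits the inner coat of SEC23 and SEC24, and SEC13 and SEC31 form the outer cage. SEC24 and the cargo receptors choose what is loaded, and tethers and SNARE proteins bring the vesicle to its target membrane. COPI vesicles, whose coat is recruited by ARF GTPases, carry escaped residents and recycled receptors back. In secretory cells, transcription factors of the unfolded protein response and of the CREB3 family are known to raise parts of this machinery.

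Gene counts per library ranged from 6701004 to 14259943 with glucose and from 11086416 to 14060313 in its absence. Nothing in the labels makes the libraries of a group separate cultures, and the p-values therefore reflect the spread among these libraries alone, which may be technical. On the second principal component, which held 17.3% of the variance, replicate 1 with glucose scored 42.7 against −25.7 and −21.1 for replicates 2 and 3 of that group. The 8 epithelial and A549 marker genes were all detected, with a summed level of 9214 to 10076 CPM (counts scaled to library size, on the usual CPM scale) with glucose and 7108 to 8442 CPM without, and 3 of them passed as lower. Of 6 fibroblast markers COL1A2 and DCN, of 6 leukocyte markers CD3E, and of 4 endothelial markers VWF and KDR had no count in any library. Those lists summed to 13.0 to 14.8, 15.5 to 17.5 and 0.211 to 0.848 CPM with glucose and 4.52 to 5.89, 25.0 to 39.2 and 0.190 to 0.306 CPM without. Of 10 immediate-early and heat-shock genes, read as signs of handling, 6 passed as higher, with summed levels of 762 to 997 CPM with glucose and 1396 to 1849 CPM without. The part of the handling genes in the results below was not tested.

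Without glucose, 14 of the 49 members tested rose, which is 28.6%, while 11.6% of all 11886 genes tested rose. Higher and lower calls were made at an adjusted p under 0.05 by edgeR's quasi-likelihood test with Benjamini-Hochberg adjustment over all genes. No member passed as lower, against 10.7% of all genes. At an unadjusted p under 0.05, 2 members were lower and 21 higher, and all genes were not counted at that cutoff. DESeq2 called 1 member lower and 17 higher, and 1581 lower and 1541 higher among all 11886 genes. The 14 were SEC31A, SEC24D, MIA2 and MIA3 of the COPII class, COPA, COPG1 and ARF4 of the COPI class, the cargo receptors LMAN1, KDELR3, TMED2, TMED5 and TMED7, and USO1 and STX5 of the last class. In 21 members (42.9%) every library without glucose lay above every library with it, against 21.0% of all genes, and in 4 (8.16%) every one lay below, against 19.4%. The median log2 fold change, without glucose relative to with glucose, was 0.40 over the members and 0.02 over all genes. Of the 14, 7 passed on leaving out any 1 library (SEC24D, MIA2, MIA3, COPA, LMAN1, KDELR3 and TMED7). In those fits 10 to 13 members in all were called higher, and 860 to 1292 of the 11982 to 12116 genes tested.

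**Figure D1:**
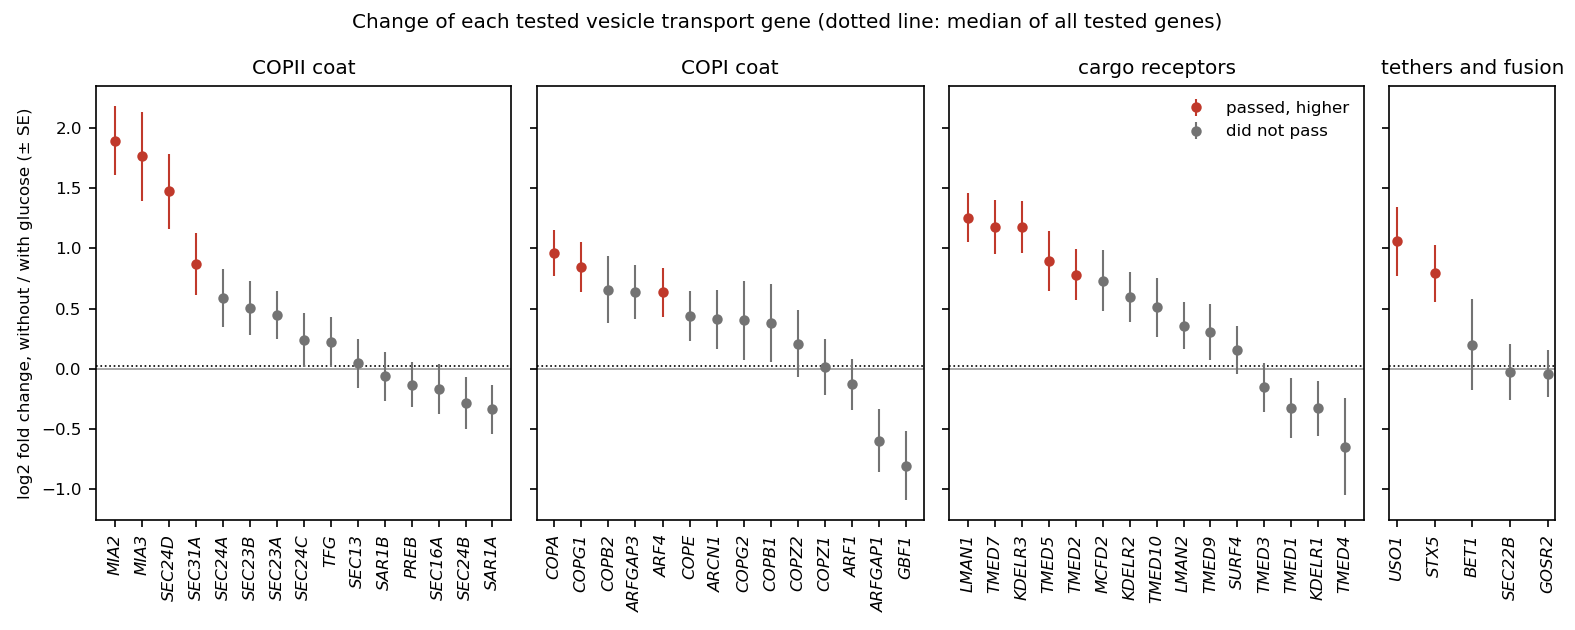
The log2 fold change of each of the 49 tested members, without glucose relative to with glucose, with its SE, in 4 panels by class. Red points passed the test and grey points did not; the points of MIA2, MIA3 and SEC24D lie highest, the dotted line marks the median of all genes (0.02), and no point below it is red.

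Together the members took up 0.418% to 0.509% of a library's gene counts with glucose and 0.571% to 0.658% without. Summed over the 50 genes the level was 4816, 4813 and 4189.7 CPM with glucose and 6338, 6441 and 5915 CPM without, for replicates 1, 2 and 3. The summed level without glucose was 1.42 times that with glucose for the COPII class, 1.29 times for the COPI class, 1.34 times for the cargo receptors and 1.62 times for tethers and fusion. In each of these classes the lowest library without glucose lay above the highest with it. A gene with many counts weighs more in such a sum than one with few. As the counts come from bulk RNA, more transcripts in each cell and more cells that make them cannot be told apart.

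**Figure D2:**
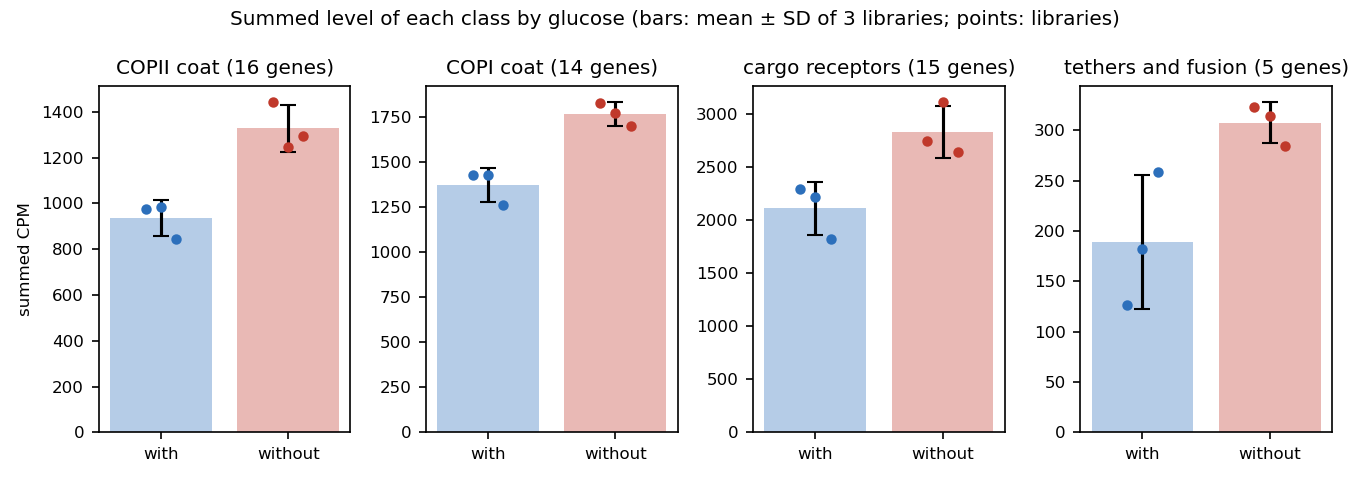
Summed CPM of each class, on an axis that starts at 0, with bars for the mean, error bars for the SD of 3 libraries and a point per library. The points without glucose lie above those with glucose in all 4 panels, most closely for tethers and fusion (259 CPM with glucose in replicate 3, 284 CPM without in replicate 3).

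All 7 genes of a short list known to respond to stress of the endoplasmic reticulum, chosen with earlier results of these data in view, rose by edgeR's test, against 11.6% of all genes. HSPA5, the main chaperone of that compartment and a ligand of the KDEL receptors, measured 613, 842 and 864 CPM with glucose and 5464, 8711 and 6448 CPM without. HERPUD1, DNAJB9, SDF2L1 and HYOU1, further targets of the unfolded protein response, rose 4.56-fold, 5.89-fold, 4.96-fold and 10.8-fold. XBP1 and ATF6, its transcription factors, rose 1.97-fold and 2.36-fold. ATF3, a stress-responsive gene counted among the handling genes above, had a log2 fold change of −0.12 (edgeR adjusted p = 0.775). Of the 14 members that rose, MIA2 had the highest fold, at 3.72.

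Promoters were searched for short motifs, because XBP1 and ATF6 are known to bind TGACGTGG, the core of the unfolded protein response element (UPRE). RefSeq promoter entries (build GRCh38.p14), which run from 250 bases before to 50 bases after a gene's start, were matched for 42 of the 50 members and 10 of the 14 that rose. The UPRE core stood on one strand or the other in 10 of the 42 (23.8%), against 0.938% of 9805 tested genes with an entry and 0.795% of all 27305 entries. It stood in 3 of 10 members that rose and in 7 of the 32 others. In the bases before the start alone the core stood in 6 of 42 members (14.3%) and in 0.745% of tested genes. Each stretch below is 30 bases around a match, read 5′ to 3′ in the direction of the gene, with the UPRE core or its reverse complement in capitals; those of KDELR3, STX5 and COPA come first because these genes rose.
KDELR3 (chr22:38468039-38468068, plus strand): ggccgccctggCCACGTCAccgcccggcca
STX5 (chr11:62832049-62832078, minus strand): ttacgtgtaggTGACGTGGccgcttccagt
COPA (chr1:160343227-160343256, minus strand): gagagggtcgcTGACGTGGaggcgtccgaa
SEC23A (chr14:39103221-39103250, minus strand): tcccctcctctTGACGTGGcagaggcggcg
SEC24A (chr5:134648595-134648624, plus strand): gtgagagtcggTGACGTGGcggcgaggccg
SEC16A (chr9:136484707-136484736, minus strand): tggccctggtgCCACGTCAgccggactgaa
COPB1 (chr11:14499841-14499870, minus strand): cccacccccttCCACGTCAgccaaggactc
COPB2, first of its matches (chr3:139389825-139389854, minus strand): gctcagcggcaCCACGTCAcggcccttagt
ARF1 (chr1:228082681-228082710, plus strand): cccggaggcgcTGACGTGGccgccgtcaga
GBF1 (chr10:102245526-102245555, plus strand): gaggctagttaCCACGTCAgtgagctgaca

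Of these, the match of KDELR3 begins 46 bases before the start, that of STX5 16 bases before, and that of COPA 6 bases after it. COPB2 held another match, from base 31 after the start. Every UPRE core contains the shorter core CCACG, which ATF6 is known to bind as the second part of the endoplasmic reticulum stress element. CCACG on either strand stood in 37 of 42 members (88.1%) and in 50.6% of tested genes. It stood in 9 of 10 members that rose and in 28 of the 32 others. In the bases before the start alone CCACG stood in 69.0% of members and in 45.3% of tested genes. The full stress element (ERSE), its variant ERSE-II and TGATGCAA, which ATF4 and C/EBP factors bind, all on either strand, matched 0 of the 42 entries, and 0.143%, 0.102% and 0.459% of those of tested genes. The absence of these letters from the window says nothing of the factors. The 250 bases before the start of KDELR3 (chr22:38467846-38468095, plus strand) are printed to show how its cores lie, with CCACG on either strand and the whole UPRE core in capitals.
KDELR3: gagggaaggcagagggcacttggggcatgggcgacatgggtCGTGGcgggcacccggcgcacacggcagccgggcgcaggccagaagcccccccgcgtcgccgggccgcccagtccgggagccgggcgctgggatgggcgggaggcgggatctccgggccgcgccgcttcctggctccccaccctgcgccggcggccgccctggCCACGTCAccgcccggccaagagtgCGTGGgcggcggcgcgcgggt

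**Figure D3:**
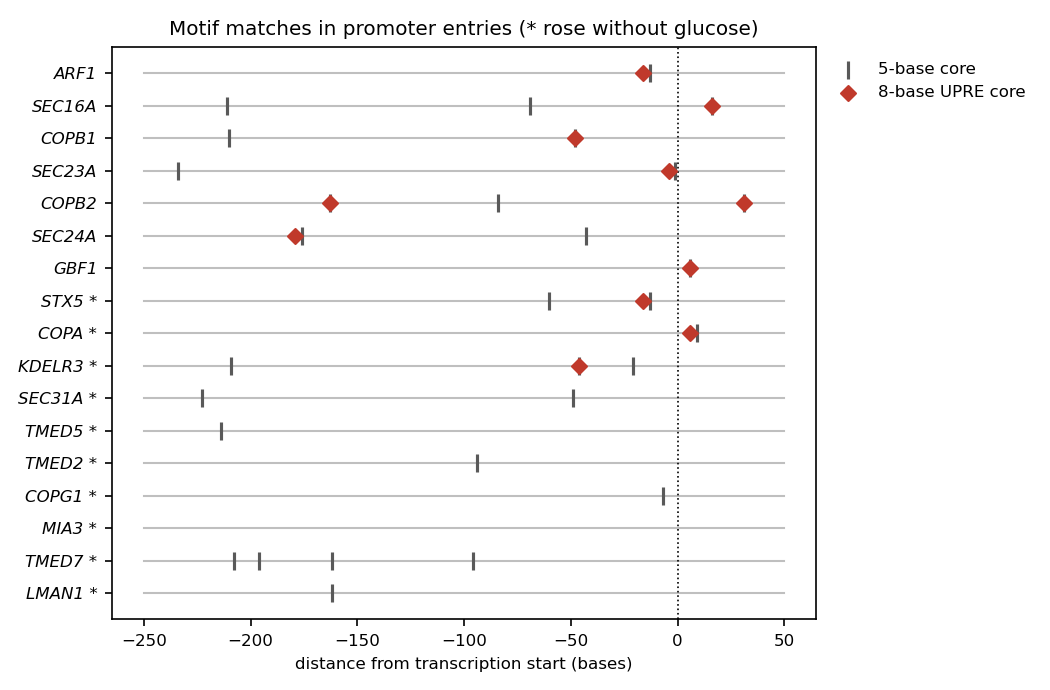
Motif matches along the promoter entries of 17 members, those that rose (marked with an asterisk) or that hold the UPRE core, by distance in bases from the transcription start. Diamonds mark the UPRE core and ticks the shorter core on either strand; the diamonds of KDELR3, STX5 and COPA lie from 46 bases before to 6 bases after the start.

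In the COPII class the genes that rose most encode organizers of the exit sites and a cargo adaptor, while the GTPases and their exchange factor did not pass. Of 15 genes tested 4 rose (26.7%, against 11.6% of all genes) and 11 did not pass, with a median log2 fold change of 0.24. That median was 0.11 without glucose-free replicate 2, 0.44 without replicate 1 with glucose and 0.38 without glucose-free replicate 1. MIA2 and MIA3 (the latter known as TANGO1) encode partner proteins of the exit sites that help load bulky cargo such as collagens. MIA2 measured 18.7, 32.0 and 26.6 CPM with glucose and 122, 60.2 and 106 CPM without, in replicates 1, 2 and 3. Every library without glucose lay above every one with it, and replicate 2 was the lowest of the group without glucose. MIA2 rose 3.72-fold (log2 fold change 1.90 ± 0.29, SE, edgeR adjusted p = 8.5e-04).

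MIA3 measured 14.3, 42.5 and 45.4 CPM with glucose and 159, 94.1 and 96.6 CPM without. Its groups did not overlap, and replicate 1 stood apart in each group, low with glucose and high without. The log2 fold change was 1.77 ± 0.37 (edgeR adjusted p = 0.00533), and leaving out any 1 library gave 1.41 to 2.03. SEC24D, one of the adaptors that bind cargo, measured 11.0, 7.11 and 14.7 CPM with glucose and 44.1, 24.4 and 23.4 CPM without. It rose 2.78-fold (log2 fold change 1.47 ± 0.31, edgeR adjusted p = 0.0059), with no overlap between groups.

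The other SEC24 genes did not pass. SEC24A had a log2 fold change of 0.59 ± 0.24 (edgeR adjusted p = 0.0946), SEC24C of 0.24 ± 0.22 and SEC24B of −0.28 ± 0.22. SEC24B was the member of this family that was lower in all 3 libraries without glucose (12.0 to 16.3 CPM) than in any with glucose (16.5 to 18.5 CPM). Their partners SEC23A and SEC23B, which activate the GTPase of SAR1, had log2 fold changes of 0.45 ± 0.20 and 0.50 ± 0.22 and adjusted p of 0.125 and 0.124 by edgeR.

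Of the outer cage, SEC31A measured 170.4, 252 and 161 CPM with glucose and 470.2, 275 and 321 CPM without. The groups did not overlap, but replicate 2 with glucose and replicate 2 without lay close together. SEC31A rose 1.83-fold (log2 fold change 0.87 ± 0.26, edgeR adjusted p = 0.029). Its call was lost without replicate 1 or replicate 3 of either group (adjusted p from 0.0605 to 0.119 by edgeR). SEC13, the other cage protein and also a nuclear pore subunit, ran from 196 to 268 CPM with glucose and from 209 to 265 CPM without (log2 fold change 0.05 ± 0.20). SEC31B, the second gene for the cage protein, had too few counts to be tested in the main fit. It had 1, 1 and 6 counts with glucose and 8, 10 and 25 without. Relative to scaled library totals that is a ratio of 4.58 of pooled counts. The exact 95% interval of 2.13 to 11.3 covers counting error alone. SEC31B was tested with no filter on low counts and in some fits that left out 1 library, and was not called there.

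The genes of the switch and the scaffold of the coat did not pass. SAR1A had a log2 fold change of −0.34 ± 0.21, SAR1B of −0.06 ± 0.20 and PREB of −0.13 ± 0.19. SEC16A, the scaffold of exit sites, had −0.17 ± 0.21 and TFG, which clusters vesicles there, 0.22 ± 0.21. The edgeR adjusted p of these 5 genes ran from 0.262 to 0.85. Apart from PREB, whose 3 libraries without glucose (37.6 to 38.2 CPM) lay just below the lowest with it (38.3 CPM), their groups overlapped.

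In the COPI class 3 of 14 genes tested rose (21.4%, against 11.6% of all genes), 11 did not pass, and the median log2 fold change was 0.41 (0.24 without glucose-free replicate 1). COPA, of the outer subcomplex, measured 257, 242 and 217 CPM with glucose and 499.5, 436 and 460.0 CPM without. Its groups were far apart relative to their spread. COPA rose 1.95-fold (log2 fold change 0.96 ± 0.19, edgeR adjusted p = 0.00383), and it passed under every alternative run. COPG1, a subunit of the inner subcomplex, measured 34.8, 27.0 and 23.2 CPM with glucose and 49.7, 49.7 and 52.4 CPM without. It rose 1.79-fold (log2 fold change 0.84 ± 0.21, edgeR adjusted p = 0.0122). Its call was lost without replicate 2 or replicate 3 with glucose (0.0548 and 0.0654 by edgeR). In each of those fits 1 gene of the class was called higher. Among all genes tested, 860 of 12116 and 894 of 11995 were called higher there.

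The other coat subunits had positive log2 fold changes that did not pass. These were 0.66 ± 0.28 for COPB2, 0.44 ± 0.21 for COPE, 0.41 ± 0.24 for ARCN1, 0.40 ± 0.33 for COPG2, 0.38 ± 0.32 for COPB1, 0.21 ± 0.28 for COPZ2 and 0.01 ± 0.23 for COPZ1. COPB2 measured 194 CPM in replicate 1 without glucose, against 104 and 89.1 CPM in replicates 2 and 3 and 73.8 to 87.6 CPM with glucose. COPB1 measured 83.4 CPM in replicate 1 with glucose, while the other 5 libraries held 177 to 267 CPM.

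Of the GTPases and their regulators, ARF4 alone passed. ARF4 measured 77.6, 69.9 and 68.5 CPM with glucose and 91.6, 124 and 119 CPM without, with no overlap. It rose 1.55-fold (log2 fold change 0.64 ± 0.20, edgeR adjusted p = 0.0397). That call was lost without replicate 2 or 3 of either group (0.116 to 0.126 by edgeR), and with library totals as scaling. ARF1, the main GTPase that recruits the coat, measured 374 to 542 CPM with glucose and 361 to 471 CPM without (log2 fold change −0.13 ± 0.21). ARFGAP3, a GTPase activator of ARF, had a log2 fold change of 0.64 ± 0.22 and the related ARFGAP1 of −0.60 ± 0.26, with edgeR adjusted p of 0.0579 and 0.121. Each had groups that did not overlap, but those of ARFGAP1 nearly touched (15.9 to 28.3 CPM with glucose, 10.9 to 15.8 CPM without). The log2 fold change of ARFGAP1 was −0.32 without replicate 1 with glucose and −0.75 without replicate 2 with glucose. GBF1, the exchange factor that loads ARF with GTP, measured 16.3, 28.8 and 13.3 CPM with glucose and 11.2, 11.6 and 10.7 CPM without. Its log2 fold change of −0.80 ± 0.28 did not pass (edgeR adjusted p = 0.0605), but passed as lower with DESeq2, with library totals as scaling, without a filter on low counts, and without replicate 3 with glucose.

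**Figure D4:**
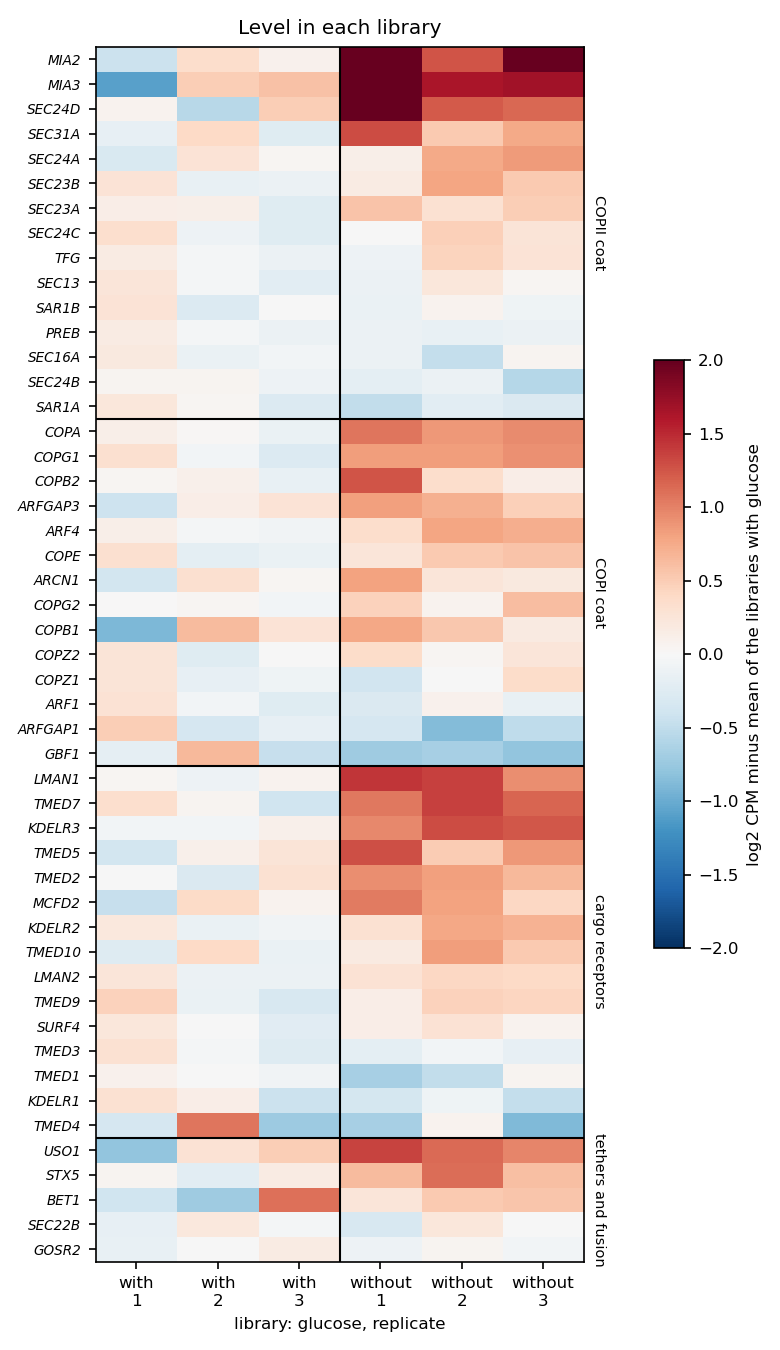
Level of each tested member in each library, as log2 CPM minus the mean of the 3 libraries with glucose, with members in rows grouped by class and ordered by log2 fold change, and libraries in columns. Red is higher and blue lower, and the color scale ends at 2 on each side. Replicate 1 with glucose is low for MIA3, COPB1 and USO1, and replicate 2 with glucose is high for TMED4.

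Among the cargo receptors 5 of 15 genes rose (33.3%, against 11.6% of all genes), 10 did not pass, and the median log2 fold change was 0.51 (0.32 without glucose-free replicate 2). LMAN1 (ERGIC-53), a lectin that carries glycoproteins such as clotting factors out of the endoplasmic reticulum, measured 234, 211 and 237 CPM with glucose and 611, 582 and 434 CPM without. The groups were well apart. LMAN1 rose 2.39-fold (log2 fold change 1.26 ± 0.20, edgeR adjusted p = 0.00123). MCFD2, which forms the receptor together with LMAN1, measured 61.2 to 110.5 CPM with glucose and 113 to 173 CPM without. Its log2 fold change of 0.73 ± 0.25 did not pass (edgeR adjusted p = 0.0538), though it did with DESeq2, with no filter on low counts and without replicate 2 with glucose. The related lectin LMAN2 had a log2 fold change of 0.36 ± 0.20, and SURF4, an export receptor for soluble proteins and lipoproteins, of 0.16 ± 0.20.

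KDEL receptors bind chaperones that have escaped to the Golgi and return them in COPI vesicles. KDELR3 measured 9.75, 9.70 and 10.8 CPM with glucose and 19.6, 25.0 and 23.9 CPM without. The libraries of each group lay close together and the groups did not overlap. KDELR3 rose 2.26-fold (log2 fold change 1.18 ± 0.21, edgeR adjusted p = 0.00244). KDELR2 measured 217, 172 and 179 CPM with glucose and 234, 321 and 307 CPM without, again with no overlap. Its log2 fold change of 0.60 ± 0.21 did not pass (edgeR adjusted p = 0.0559), though it did with DESeq2 and without replicate 1 of either group. KDELR1 had a log2 fold change of −0.33 ± 0.23 and groups that overlapped (166 to 276 CPM with glucose and 161 to 209.7 CPM without).

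The p24 proteins, encoded by TMED genes, are abundant receptors that cycle in both kinds of vesicle and work as mixed complexes. TMED7 measured 52.4, 43.0 and 31.4 CPM with glucose and 86.3, 107 and 92.9 CPM without. Its groups did not overlap, and it rose 2.26-fold (log2 fold change 1.18 ± 0.23, edgeR adjusted p = 0.00351). TMED2 measured 125, 102 and 155 CPM with glucose and 239, 223 and 197 CPM without. It rose 1.72-fold (0.78 ± 0.21 on the log2 scale, edgeR adjusted p = 0.0198), a call lost without replicate 2 with glucose or glucose-free replicate 1 (0.0963 and 0.0594). TMED5 measured 17.0, 23.5 and 26.2 CPM with glucose and 53.5, 31.2 and 40.1 CPM without, so that the groups lay apart by a small margin. It rose 1.86-fold (0.90 ± 0.25, edgeR adjusted p = 0.0216), a call lost without replicate 1 or 2 with glucose or glucose-free replicate 1 or 3 (0.0576 to 0.085).

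The other 5 p24 genes did not pass. TMED10 had a log2 fold change of 0.51 ± 0.24 and TMED9 of 0.31 ± 0.23. TMED3 had −0.15 ± 0.21, TMED1 −0.32 ± 0.25 and TMED4 −0.65 ± 0.40. TMED4 varied widely between libraries of a group, with 309 CPM in replicate 2 with glucose against 116 and 89.5 CPM in replicates 1 and 3. Summed over the 8 p24 genes, the level was 1029.5, 1087 and 799 CPM with glucose and 1092, 1330.2 and 1159.9 CPM without.

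Of the tethers and fusion proteins 2 of 5 genes rose (40.0%, against 11.6% of all genes), 3 did not pass, and the median log2 fold change was 0.20. USO1 (p115), a long tether that catches vesicles near the Golgi, measured 52.0, 109 and 126 CPM with glucose and 228, 196 and 176 CPM without. Replicate 1 was the lowest library with glucose and also the highest without. USO1 rose 2.08-fold (log2 fold change 1.06 ± 0.29, edgeR adjusted p = 0.0207), a call lost without glucose-free replicate 1 (0.066). STX5, the SNARE on the Golgi side, measured 11.4, 9.51 and 12.3 CPM with glucose and 17.1, 23.8 and 16.8 CPM without, with no overlap. It rose 1.73-fold (log2 fold change 0.79 ± 0.23, edgeR adjusted p = 0.0302), but not without replicate 2 or 3 of either group (0.0521 to 0.122).

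SEC22B, BET1 and GOSR2, the SNAREs that pair with STX5, had log2 fold changes of −0.03 ± 0.23, 0.20 ± 0.38 and −0.04 ± 0.19. Their groups overlapped. BET1 measured 77.0 CPM in replicate 3 with glucose, against 27.1 and 21.8 CPM in replicates 1 and 2 and 42.0 to 52.2 CPM without glucose. Without that replicate 3 its log2 fold change was 0.99 and passed (edgeR adjusted p = 0.0212). The median of the class was then 0.88, and it was −0.0347 without replicate 1 with glucose and 0.08 without replicate 2 with glucose.

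The log2 ratio of counts within 15 pairs of related or partner genes was followed across libraries; this ratio does not depend on library scaling. KDELR3 relative to KDELR1 had a log2 ratio of −4.81, −4.65 and −3.93 with glucose and −3.16, −3.06 and −2.75 without, a change of 1.47. KDELR2 relative to KDELR1 changed by 0.90, from −0.25 ± 0.32 to 0.65 ± 0.26 (SD, n = 3 per group). ARFGAP3 relative to ARFGAP1 changed by 1.24 and ARF4 relative to ARF1 by 0.74. LMAN1 relative to LMAN2 changed by 0.87, SEC24A relative to SEC24B by 0.87 and COPG1 relative to COPG2 by 0.48, and SEC24C relative to SEC24D by −1.23. In these 8 pairs the ratios of the groups did not overlap, but in some they nearly touched. For COPG1 relative to COPG2 the highest ratio with glucose was 3.33 and the lowest without was 3.34. For SEC24C relative to SEC24D the lowest with glucose was 0.55 and the highest without was 0.54. Each of the 8 pairs had an exact two-sided permutation p of 0.1, the smallest that 3 against 3 libraries allow. After Benjamini-Hochberg adjustment over the 15 pairs it was 0.188, so no pair could pass.

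In the other 7 pairs the ratios overlapped. MIA3 relative to MIA2 changed by 0.03, SEC23A relative to SEC23B by −0.04, COPB1 relative to COPB2 by −0.08, COPZ1 relative to COPZ2 by −0.22 and SAR1A relative to SAR1B by −0.28. SEC24D relative to SEC24A changed by 0.90, with replicate 1 without glucose far above the rest. SEC31A relative to SEC31B, which rests on few counts of SEC31B, changed by −1.29.

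**Figure D5:**
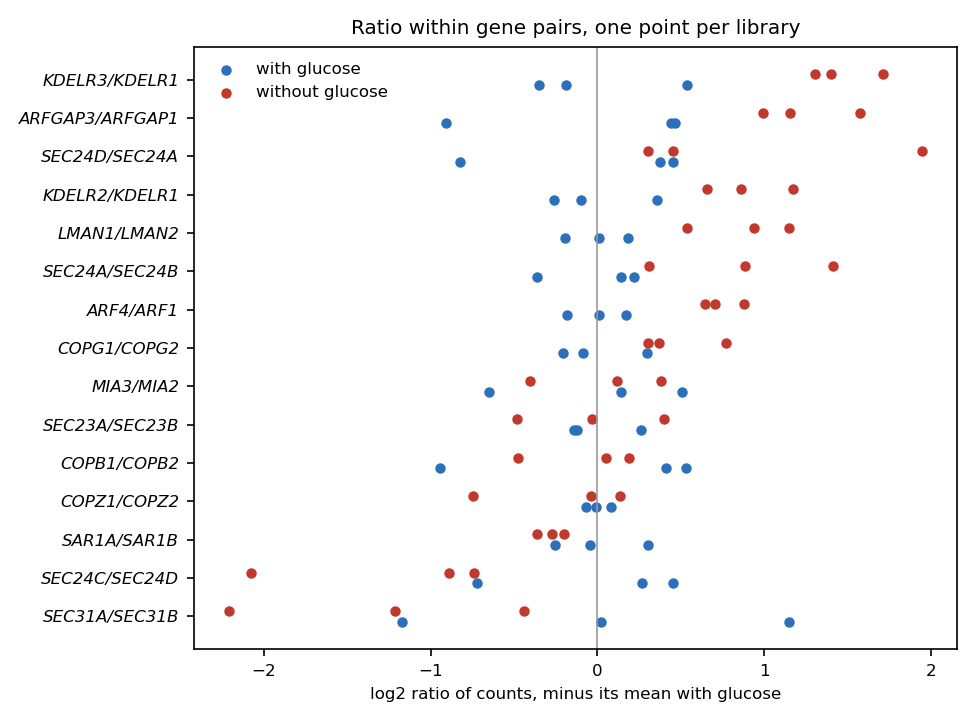
The log2 ratio of counts within 15 gene pairs, minus its mean with glucose, with a point for each of 3 libraries with glucose (blue) and 3 without (red). For KDELR3/KDELR1, ARFGAP3/ARFGAP1 and ARF4/ARF1 all red points lie to the right of all blue ones, and for MIA3/MIA2 they mix around 0.

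A list of 59 further genes of the same route, from Golgi tethers to regulators of the coats, was read beside the members. Of 56 tested, 4 rose (7.14%, against 11.6% of all genes), 3 fell and 49 did not pass, with a median log2 fold change of 0.03. SCFD1, which works with STX5 in fusion, rose from 59.3 to 165 CPM (means of 3 libraries; log2 fold change 1.48, edgeR adjusted p = 0.00203). YIPF5, a membrane protein of the early Golgi, rose by 1.13 on the log2 scale. LMAN2L, a lectin related to LMAN2, fell by 0.89 on the log2 scale, and ARF3, a GTPase related to ARF1, by 0.78. The remaining calls, named after their values were seen, were CREB3L2, a transcription factor known to raise coat genes (0.73), and TRAPPC8, of a tether complex (0.73), which rose, and the SNARE gene BNIP1 (−0.91), which fell. The number that rose was 2 without replicate 2 or 3 with glucose, and the number that fell was 1 without glucose-free replicate 1.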

How the data were processed

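RNA of 6 A549 libraries was counted from 3' ends after oligo-dT priming, per the labels' protocols, with 12 PCR cycles and no mention of molecular identifiers. The authors deposited raw read counts per Entrez gene, made with STAR and HTSeq on hg19, per the submitters' processing notes, with versions, annotation and strand setting not given in the sources used here. The 5 HTSeq summary lines stayed out; 43.1% to 44.7% of each library's listed reads fell in genes. Reads with more than 1 alignment were not counted, and 11 members have pseudogenes named after them (ARF1, ARF4, SAR1A, SEC22B and TMED10 among them), so their levels are uncertain. Symbols came from RefSeq (GRCh38.p14), which matched 19178 of 19240 genes.

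edgeR 4.0.16 in R 4.3.3 was run on the deposited counts (TMM, filterByExpr with a minimum count of 10, quasi-likelihood F test, two-sided, no covariate, 11886 genes, adjusted p under 0.05). SE was worked back from F as the log2 fold change over its root. Pair ratios used a pseudocount of 0.5. The test was tried on simulated data first. The members and lists were chosen with earlier results of these data known. By rule, full statistics are given for members that passed and for the 2 smallest p of each class. Libraries of a group differed by more than sampling noise (chi-square over degrees of freedom 22.1 to 57.3), so none were merged. Alternatives were other scalings, DESeq2 1.42.0, other filters, a replicate block and leaving out each library. Levels were compared between genes only as pair ratios within a library, which were read for their change between groups. Promoter entries of SEC24D, MIA2, ARF4, ARFGAP1, KDELR2, TMED4, TMED9 and USO1 were not used here. Of the 42 entries used, 39 had their last 30 bases in a GENCODE transcript of the gene.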

Additional observations from a re-analysis of the deposited data

How the results depend on the processing

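Same-numbered libraries did not deviate together (correlations of deviations −0.24, −0.10 and 0.03), so the replicate numbers were not taken to pair them. With a replicate block 10 members rose, all among the 14; SEC31A, ARF4, TMED2 and STX5 did not pass (edgeR adjusted p = 0.062, 0.11, 0.0536 and 0.0705). Of the 10, 1 was in tethers and fusion, whose median log2 fold change was 0.43; 984 genes rose and 911 fell. GBF1 was the single member that fell with library totals as scaling, with DESeq2, with no filter on low counts and without replicate 3 with glucose, so that 1 COPI gene fell there against 0. In the bases before the start alone 6 members held the UPRE core. With library totals the median over all members was 0.34, and 5 related genes fell, as with DESeq2. When 1 library was left out, 10 to 13 members rose and 0 to 1 fell; in the COPI class 1 to 3 rose and 0 to 1 fell, and in tethers and fusion 1 to 2 rose. Over those fits 860 to 1292 genes rose and 781 to 1232 fell, 2 to 4 related genes rose and 1 to 4 fell. The median log2 fold change was 0.33 to 0.44 over all members, 0.11 to 0.44 over the COPII class, 0.24 to 0.50 over the COPI class, 0.32 to 0.58 over cargo receptors and −0.0347 to 0.88 over tethers and fusion; the cause was not tested. Of 343 comparisons of counts, medians, ratios and motif counts with an alternative, 312 stayed within 1.5 times or within the spread, and none of 588 for single members reversed a call. Members with few counts, COPG2, COPZ2 and SEC31B, are limited by depth.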
